A study of Drosophila melanogaster with 4 samples.

Results

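The genes described here encode digestive enzymes and lysozymes of the Drosophila melanogaster midgut. They were chosen by name: the current symbol starts with Jon, Mal-A, Amy- or Lys and a capital letter, or ends in Try, and the spot has a value on at least 1 array of each biological replicate. Of 16416 spots in the table, 45 carried such a symbol, each for a different gene, and 27 of them had values in both replicates. One of the 27 is LysRS, which encodes the lysyl-tRNA synthetase and shares only the letters of its symbol with the lysozymes. It was kept apart, which leaves 26 of 44 enzyme genes: 8 of 16 Jonah proteases, 4 of 7 lysozymes, 7 of 11 trypsins and 7 of 10 maltases and amylases (6 Mal-A genes and Amy-d).

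Each array compared whole, dechorionated embryos of 2 genotypes, collected at 0 to 24 h of age from flies kept at 25 °C. The mutant embryos (w1118; dsap18 117/Df(3R)sbd45) carried a null allele of dsap18, made by mobilising the P element EP(3)3462, over a deficiency that uncovers the gene. dSAP18 is the fly SAP18, a small nuclear protein of the Sin3 histone deacetylase and ASAP complexes. The control embryos had the same allele, deficiency and w1118 background and were rescued by a dsap18-HA transgene, so the null allele and the deficiency are common to both. There were 2 biological replicates from different RNA extractions, each hybridised on 2 arrays with the dyes swapped, so n is 2 and swapped arrays are technical repeats. Per the labels the transgene lies on X for 3 of the arrays and on chromosome 2 for 1 array of replicate 1, whose dye swap used the same RNA. The labels do not say how mutant embryos were picked or how many went into an extraction.

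The values are the authors' log ratios of the 2 channels, taken as log2. Their direction is not stated. Mutant over control is likely, since the design text calls the other channel a reference, and all wording on lower and higher levels below assumes it. With the other direction every sign turns. The 4 columns correlated positively across genes (Pearson r of 0.83 and 0.92 between the swapped arrays of replicates 1 and 2, and 0.67 to 0.74 between replicates), so the dye-swapped columns were used without turning a sign. Between 39.8% and 48.6% of the spots had a value on an array.

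Food is broken down in the insect midgut by secreted hydrolases. Jonah proteases and trypsins are serine endopeptidases, of which trypsins cut after lysine and arginine. Amylases split starch, maltases (alpha-glucosidases) release glucose from maltose and related sugars, and lysozymes cut the peptidoglycan of bacterial walls. In the fly these enzymes belong mostly to the feeding larva and adult, and the midgut that makes them differentiates late in embryogenesis. Many lie in tandem clusters of closely related copies, so a spot can also take up RNA of a neighbour with a near-identical sequence. Probe sequences were not used here, and such cross-hybridisation was not tested.

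Jonah proteases and lysozymes were lower in mutant embryos, while trypsins and maltases were split. Of the 26 enzyme genes, 14 had a negative ratio that passed the test, none had a positive one that did, and 12 did not pass. The test was limma's on the 2 replicate means against 0, with Benjamini-Hochberg adjustment over 5754 genes and a threshold of 0.05. Over all genes tested, 11.7% passed with a negative ratio and 11.3% with a positive one. The median log2 ratio was -0.46 over the 26 genes (-0.42 in replicate 1 and -0.50 in replicate 2), beside 0.02 over all genes. Of the 26, 18 had a negative ratio on every array with a value, against 30.5% of all genes. Embryos were taken whole, so fewer midgut cells and less RNA per cell cannot be told apart. The gene test borrows nearly all its variance from other genes (80.0 prior degrees of freedom against 1 residual). Tested without that moderation, none of the 26 passed and 4 had an unadjusted p under 0.05.

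**Figure D1:**
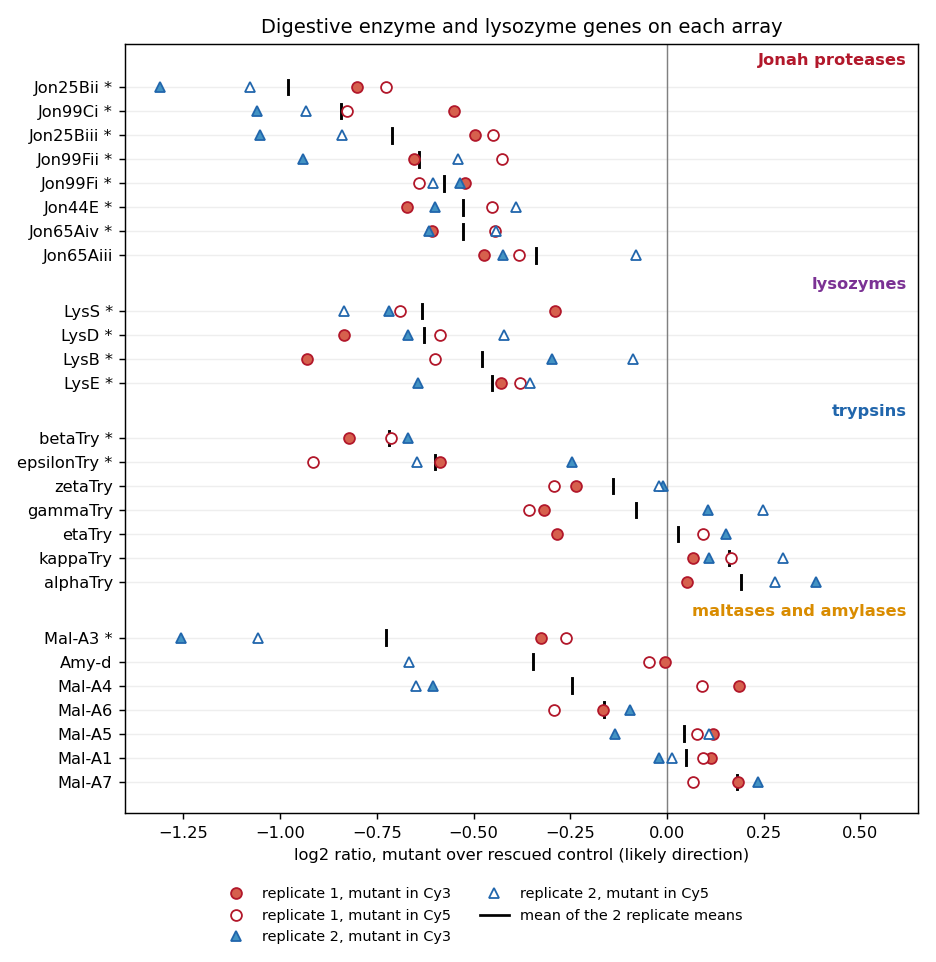
Log2 ratio of mutant over rescued control (likely direction, horizontal axis) for the 26 enzyme genes on each array; circles are replicate 1, triangles replicate 2, filled symbols have the mutant RNA in Cy3 and open ones in Cy5. Black bars are the means of the 2 replicate means and an asterisk marks a limma adjusted p under 0.05. All 32 Jonah values and all 16 lysozyme values lie below 0, and trypsins and maltases lie on both sides.

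The Jonah proteases were the most uniform of the endopeptidases. All 32 array values of the 8 measured genes were negative, and 7 of the 8 passed, beside 11.7% of all genes that passed negative. The Jonah mean ratios ran from -0.98 to -0.34 and their median was -0.61 (-0.55 for replicate 1 and -0.66 for replicate 2). Jon25Bii (NCBI gene 33707) had log2 ratios of -0.80 and -0.73 in replicate 1, against -1.31 and -1.08 in replicate 2. Its mean was -0.98 ± 0.30 (SD, n = 2), a 1.97-fold lower level in mutant embryos, with a limma adjusted p = 4.01e-06. None of the 8 reached 2-fold, a size that 0.556% of all genes exceeded on the negative side. Jon99Ci (43545) was at -0.55 and -0.83 in replicate 1 and at -1.06 and -0.93 in replicate 2, with a mean of -0.84 ± 0.22 (1.79-fold, limma adjusted p = 5.5e-05). The neighbour of Jon25Bii, Jon25Biii, followed at -0.71 ± 0.33, with -0.50 and -0.45 in replicate 1 and -1.05 and -0.84 in replicate 2. These 3 genes had larger ratios in replicate 2 on all its arrays.

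The other Jonah genes differed less between replicates. Jon65Aiv was at -0.61 and -0.45 in replicate 1 and at -0.61 and -0.44 in replicate 2, so that its replicate means differed far less (SD 0.0013) than its swapped arrays. Jon99Fi was at -0.52 and -0.64 in replicate 1 and at -0.54 and -0.61 in replicate 2 (mean -0.58 ± 0.0082, limma adjusted p = 0.00489). Its neighbour Jon99Fii was at -0.64 ± 0.14 and Jon44E, which has no other member beside it, at -0.53 ± 0.05. Both passed (limma adjusted p = 0.00189 and 0.0103). Jon65Aiii, the sole measured Jonah gene that did not pass, was at -0.47 and -0.38 in replicate 1 and at -0.42 and -0.08 in replicate 2, with a mean of -0.34 ± 0.12 (limma adjusted p = 0.11). The array of replicate 2 with the mutant in Cy5 stood nearest to 0, and the 95% interval of the fit, -0.65 to -0.03, lay below 0 before adjustment.

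Most Jonah and lysozyme values differed with the dye. In 13 of 16 swapped pairs of the Jonah genes the ratio with the mutant in Cy5 was higher, that is, closer to 0, than the ratio with the mutant in Cy3, with a median difference of 0.17. The lysozymes described next had the higher ratio with the mutant in Cy5 in 6 of 8 pairs, with a median difference of 0.23. Trypsins had it in 5 of 11 pairs (median difference -0.0083) and maltases and amylases in 4 of 11 (-0.04). Over all genes the ratio with the mutant in Cy5 was higher in 52.7% of pairs, with a median difference of 0.01. The Jonah medians on the single arrays were -0.58 (mutant in Cy3) and -0.45 (Cy5) in replicate 1 and -0.78 and -0.57 in replicate 2. All 4 medians were negative, whichever dye the mutant RNA carried.

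All 4 measured lysozyme genes passed with a negative ratio, as did 11.7% of all genes. The lysozyme median was -0.55 (-0.60 for replicate 1 and -0.52 for replicate 2) and all 16 array values lay below 0. LysS (38130), known from the gastric caeca of the larval midgut, was at -0.29 and -0.69 in replicate 1 and at -0.72 and -0.84 in replicate 2, with a mean of -0.63 ± 0.20 (1.55-fold, limma adjusted p = 0.0022). LysD (38127), a lysozyme of the larval and adult midgut, was at -0.84 and -0.59 in replicate 1 and at -0.67 and -0.42 in replicate 2, with a mean of -0.63 ± 0.12 (limma adjusted p = 0.00229). The first array of replicate 1 was the least negative for LysS and the most negative for LysD.

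LysB and LysE, close relatives of LysD in the same cluster, were lower by less. LysB was at -0.93 and -0.60 in replicate 1 but at -0.30 and -0.09 in replicate 2, with a mean of -0.48 ± 0.40 (limma adjusted p = 0.0231). Replicate 1 carried most of the LysB difference. LysE was at -0.43 and -0.38 in replicate 1 and at -0.64 and -0.35 in replicate 2 (mean -0.45 ± 0.07, limma adjusted p = 0.0292). Without the array labelled with a transgene on chromosome 2, neither passed: LysB was at -0.40 (limma adjusted p = 0.104) and LysE at -0.44 (limma adjusted p = 0.0635), and 12 of the 25 enzyme genes that could then be tested passed (alphaTry had no other value in replicate 1). The array left out had the mutant in Cy3, so replicate 1 was then represented by the mutant in Cy5 only. In this loss the transgene label, the dye and the smaller number of arrays cannot be told apart. LysB, LysD and LysE are near-identical copies, and their spots may not tell the transcripts apart. The namesake LysRS went the other way, at 0.37 and 0.50 in replicate 1 and at 0.64 and 0.39 in replicate 2 (mean 0.48 ± 0.06, limma adjusted p = 0.0213).

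Trypsin genes did not move as a group. Of 7 measured genes 2 passed, both negative, beside 11.7% of all genes that passed negative. The trypsin median was -0.08, with -0.26 in replicate 1 and 0.15 in replicate 2. betaTry (47901) was at -0.82 and -0.71 in replicate 1 and at -0.67 on its single array of replicate 2, with the mutant in Cy3, for a mean of -0.72 ± 0.07 (1.65-fold, limma adjusted p = 0.000494). epsilonTry (49080) was at -0.59 and -0.91 in replicate 1 and at -0.25 and -0.65 in replicate 2, with a mean of -0.60 ± 0.22 (limma adjusted p = 0.00367). In both replicates its ratio was less negative with the mutant in Cy3, and on those arrays alone it did not pass (-0.42, limma adjusted p = 0.105).

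Next to epsilonTry in the gene order stands alphaTry, and on the far side of betaTry stands gammaTry. alphaTry was positive on all 3 arrays with a value, at 0.05 in replicate 1 and at 0.39 and 0.28 in replicate 2 (mean 0.19 ± 0.20, limma adjusted p = 0.403). gammaTry changed sign between replicates, with -0.32 and -0.36 in replicate 1 and 0.11 and 0.25 in replicate 2 (mean -0.08 ± 0.36, limma adjusted p = 0.758). Of the others, kappaTry was positive on all 4 arrays (0.07 to 0.30, mean 0.16 ± 0.06), zetaTry was negative on all 4 (-0.29 to -0.01, mean -0.14 ± 0.18), and etaTry was at -0.28 and 0.09 in replicate 1 and at 0.15 in replicate 2. None of these 5 passed. Their 95% intervals reached no lower than -0.46 (zetaTry) and no higher than 0.51 (alphaTry). These intervals rest mostly on variance borrowed from other genes, so with 2 replicates they cannot exclude larger differences in a single gene.

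**Figure D2:**
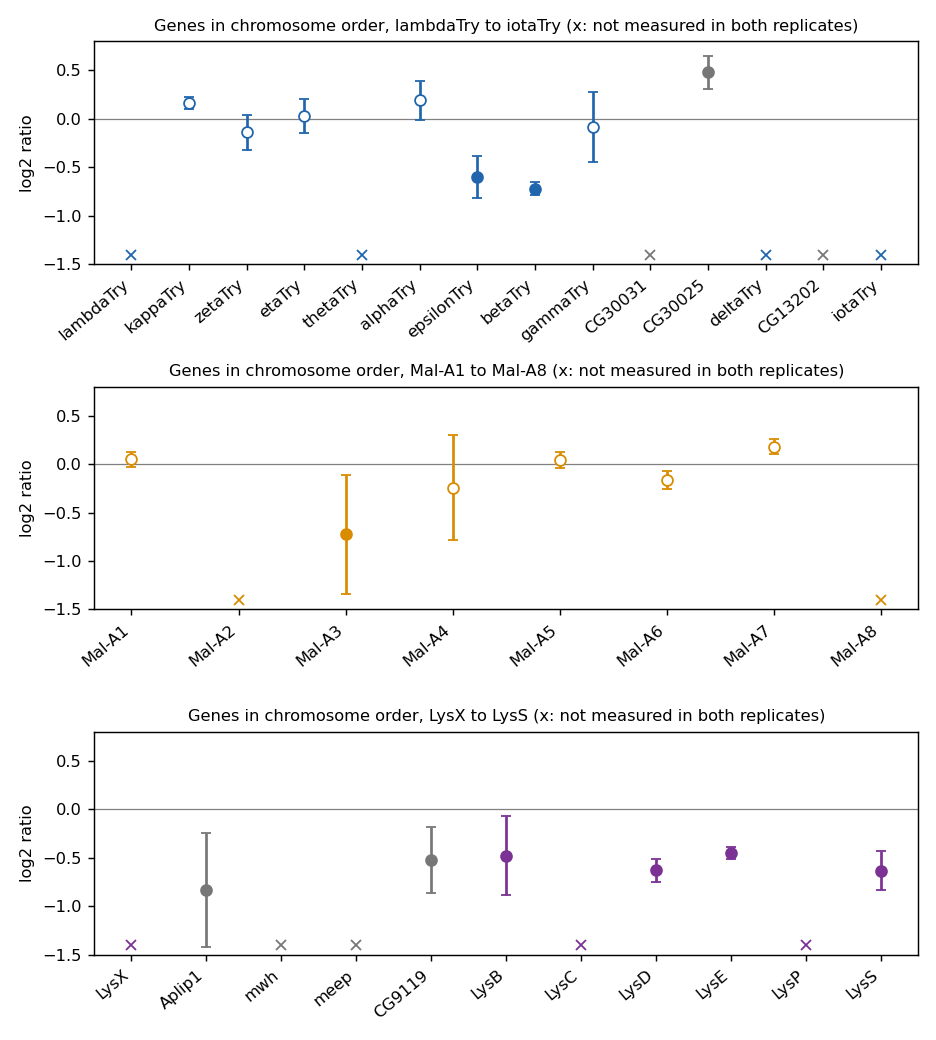
Mean log2 ratio of mutant over control (likely direction, vertical axis) for the genes of the trypsin, maltase and lysozyme clusters in chromosome order (horizontal axis, not to scale); bars are the SD of 2 replicate means, filled points passed the limma test and a cross at the lower edge marks a gene not measured in both replicates. Grey points are genes outside the naming rule. epsilonTry (-0.60) and betaTry (-0.72) stand between alphaTry (0.19) and gammaTry (-0.08), and all measured lysozymes are negative. Mal-A3 (-0.73 ± 0.61) is lower than Mal-A1 (0.05) and Mal-A5 (0.04), mostly through replicate 2.

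Of the sugar-releasing enzymes only Mal-A3 passed among 7 measured genes, with a negative ratio, beside 11.7% of all genes that passed negative. The family median was -0.16 (0.10 in replicate 1 and -0.10 in replicate 2). Mal-A3 (35826), a maltase gene in a row of 8, was at -0.33 and -0.26 in replicate 1 and at -1.26 and -1.06 in replicate 2. Its mean was -0.73 ± 0.61 (1.65-fold, limma adjusted p = 0.000759), and replicate 2 carried most of it. The next gene in the row, Mal-A4, was at 0.19 and 0.09 in replicate 1 and at -0.60 and -0.65 in replicate 2, with a mean of -0.24 ± 0.54 that did not pass (limma adjusted p = 0.286). The amylase gene Amy-d was near 0 in replicate 1 (-0.0050 and -0.05) and at -0.67 on its single array of replicate 2 (mean -0.35 ± 0.45, limma adjusted p = 0.111). Mal-A3, Mal-A4 and Amy-d thus each had a lower ratio in replicate 2 than in replicate 1.

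The remaining maltases lay closer to 0. Mal-A1 was at 0.11 and 0.09 in replicate 1 and at -0.02 and 0.01 in replicate 2 (mean 0.05 ± 0.08). Mal-A5 averaged 0.04 ± 0.08, Mal-A6 -0.16 ± 0.09 and Mal-A7 0.18 ± 0.08, the last positive on all 3 of its arrays. Their limma adjusted p-values were between 0.437 and 0.874, and their 95% intervals together spanned -0.48 to 0.50.

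The families can be set side by side in each replicate. The Jonah median was below the maltase and amylase median by 0.65 in replicate 1 and 0.56 in replicate 2, and below the trypsin median by 0.29 and 0.81. The lysozyme median was likewise lower than both, by 0.70 and 0.43 against maltases and amylases and by 0.34 and 0.67 against trypsins. Jonah and lysozyme medians differed by 0.05 in replicate 1 and by -0.13 in replicate 2 (Jonah minus lysozymes), with opposite signs. Maltases and trypsins also changed order between replicates (0.36 and -0.25, maltases and amylases minus trypsins). These differences between families were not tested and are given as descriptions.

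**Figure D3:**
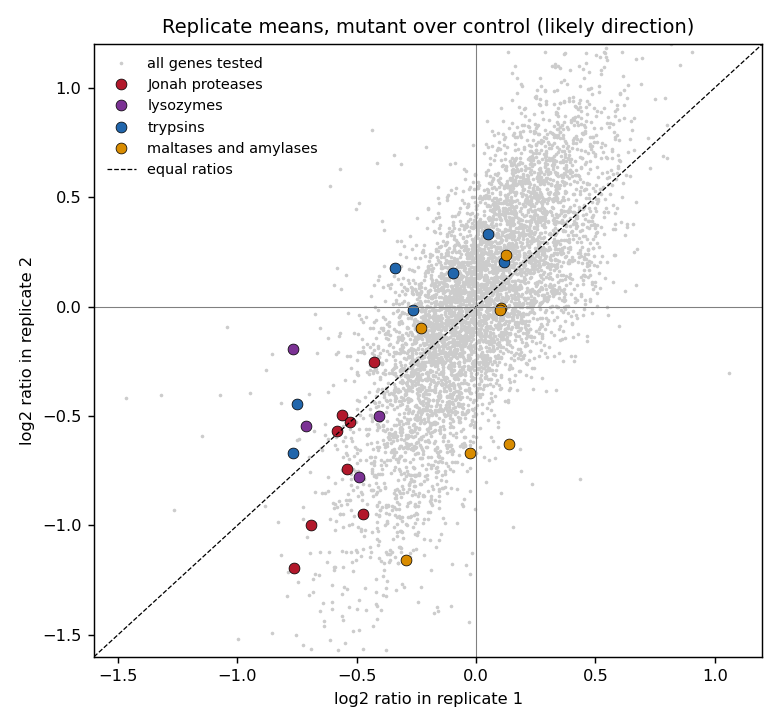
Replicate means of the log2 ratio, mutant over control (likely direction), in replicate 1 (horizontal axis) and replicate 2 (vertical axis) for all 5754 genes tested (grey, 36 of them outside the axes) and the 26 enzyme genes by family. Jonah proteases and lysozymes fill the lower left, epsilonTry and betaTry lie among them, and the other trypsins and the maltases scatter around 0 or, for Mal-A3, Mal-A4 and Amy-d, below the dashed line of equal ratios.

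Ratios were wider in replicate 2 over all genes (SD 0.48 against 0.28 in replicate 1), and 69.3% of all genes had the larger size there. This held for 5 of 8 Jonah proteases, 2 of 4 lysozymes, 3 of 7 trypsins and 4 of 7 maltases and amylases. Ranked among all 5754 genes from the lowest ratio up, the Jonah genes had a median percentile of 2.17 in replicate 1 and 9.21 in replicate 2, and the lysozymes 2.02 and 13.0. betaTry (0.452 and 8.36) and epsilonTry (0.521 and 15.9) stood in the same order. Mal-A3 did not, with percentiles of 12.8 in replicate 1 and 1.67 in replicate 2. Among the lowest 10% of genes in both replicates were 4 Jonah genes (Jon25Bii, Jon25Biii, Jon99Ci and Jon99Fii), LysS and betaTry, against 5.01% of all genes.

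Of the 18 enzyme genes without values in both replicates, 8 had values in replicate 1 only. Jon65Ai, which lies in the cluster of Jon65Aiii and Jon65Aiv, was the lowest of them at -1.14 and -1.11. The trypsin gene thetaTry was at -1.05 and -0.68 and Jon66Ci at -0.70 and -0.68. Mal-A8 was at -0.55 and -0.37, LysC (a pseudogene in the current gene table) at -0.39 on 1 array, Mal-A2 at -0.13 and -0.19, Jon99Cii at -0.11 and -0.02, and the second amylase gene Amy-p at -0.02 and 0.04. lambdaTry had 1 value, -0.14 in replicate 2. No value was present for Jon25Bi, Jon65Aii, Jon66Cii, Jon74E, Jon99Ciii, LysP, LysX, deltaTry and iotaTry. These genes entered no test, and no source used here gives the rule that left values empty.

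Other genes of gut digestion were set beside them. Of 27 further midgut hydrolase genes 12 were measured, with a median of -0.22 (-0.25 for replicate 1 and -0.27 for replicate 2), of which 4 passed negative and 1 positive (11.7% and 11.3% over all genes). CG18180, a predicted serine protease outside the naming rule, was at -1.11 and -1.01 in replicate 1 and at -2.35 and -1.84 in replicate 2. At -1.58 ± 0.73 it was 2.98-fold lower in mutant embryos, further than any Jonah gene measured in both replicates. The alpha-mannosidase genes LManV (-0.68 ± 0.39), LManII (-0.60 ± 0.32) and LManI (-0.44 ± 0.30) also passed negative, while cathD, which encodes the lysosomal aspartic protease cathepsin D, passed positive (0.48 ± 0.22, limma adjusted p = 0.0218). The Jonah-related protease gene yip7 (-0.14 ± 0.20) and the alpha-glucosidase gene tobi (-0.19 ± 0.20) did not pass. The peptidoglycan amidase gene PGRP-SC2, whose product acts on the same polymer as lysozymes, was at -0.74 and -0.57 in replicate 1 and at -0.10 on 1 array of replicate 2 (mean -0.38 ± 0.39), and did not pass either. PGRP-LE, the only other gene measured among the gut peptidoglycan receptors and amidases, was at 0.03 ± 0.11 and did not pass.

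Regulators of midgut formation showed no common direction among the 6 of 13 measured (median -0.12). srp, the GATA factor of the endoderm that also acts in fat body and blood cells, was at -0.22 and -0.43 in replicate 1 and at -0.85 and -1.0 in replicate 2 (mean -0.62 ± 0.42, limma adjusted p = 0.00285). bin, the forkhead factor of the visceral muscle around the gut, passed positive at 0.43 ± 0.13. The midgut homeobox gene dve (-0.38 ± 0.25), the stem cell gene esg (-0.27 ± 0.09), cad (0.29 ± 0.15) and sug (0.03 ± 0.22) did not pass. Among 8 measured genes of the peritrophic matrix list, the chitinous lining of the gut, 4 passed, all negative: obst-B (-1.0 ± 0.50), obst-A (-0.78 ± 0.32), Gasp (-0.74 ± 0.22) and Peritrophin-A (-0.55 ± 0.23). Over all genes 11.7% passed negative. Muc26B (-0.34 ± 0.41), obst-E (-0.14 ± 0.10), Mur18B (0.06 ± 0.03) and Mur29B (0.06 ± 0.30) did not pass. Members of this list are also made by epidermis and trachea, so ratios from whole embryos cannot be assigned to the gut lining.

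Genes of other late tissues and of the egg are given for the same arrays, and their counts can be read against the 11.7% of all genes that passed negative and the 11.3% that passed positive. Of 57 measured genes of the late embryonic cuticle 35 passed, each with a negative ratio, and the median was -0.20 for replicate 1 and -0.78 for replicate 2. The 8 muscle genes measured had medians of -0.21 and -0.89, with 5 that passed, all negative. The 13 maternal transcripts measured had medians of 0.36 and 0.55, with 6 that passed, all positive. Only 2 fat body genes were measured, apolpp (-1.13 ± 0.53), which passed, and Lsp2 (-0.07 ± 0.0022), which did not. The sole measured salivary gland gene, PH4alphaSG1, passed at -0.47 ± 0.05. In replicate 2 the cuticle (-0.78) and muscle (-0.89) medians were lower than the Jonah median (-0.66), and in replicate 1 they were higher (-0.20 and -0.21 against -0.55). The part that the age or tissue makeup of the embryos had in the enzyme ratios was not tested.

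**Figure D4:**
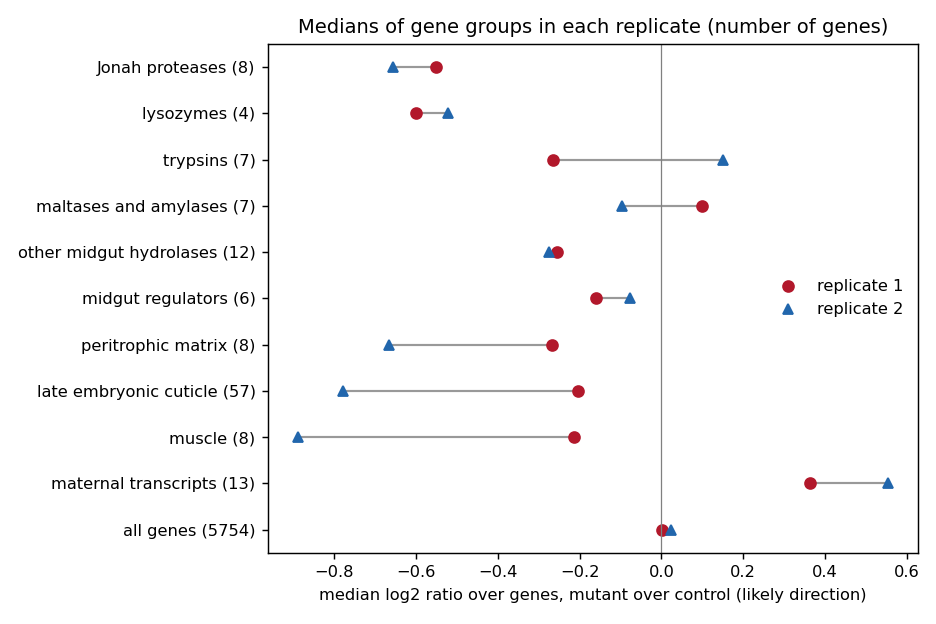
Median log2 ratio, mutant over control (likely direction, horizontal axis), over the measured genes of each group in replicate 1 (circles) and replicate 2 (triangles), with the number of genes in parentheses. Jonah proteases (-0.55 and -0.66) and lysozymes (-0.60 and -0.52) have similar medians in both replicates, whereas late embryonic cuticle (-0.20 and -0.78) and muscle (-0.21 and -0.89) are much lower in replicate 2.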

How the data were processed

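Amplification of 1.5 µg total RNA, amino-allyl labelling and hybridisation to 2-colour arrays were done per the labels' protocols. The authors deposited a log ratio per spot and array, taken here as log2. Limma, without a version, is the tool in the submitters' processing notes. No source used here gives the background correction, normalization, log base or genome build. The number of arrays limits the precision, and signal over background is unknown.

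Symbols came from the platform annotation (13163 spots with 1 symbol, 101 with several, 3152 with none). The Release 6 RefSeq gene table gave current symbols for 12532 spots through the gene ID and for 120 through an accession, and 511 kept the old symbol. The array's build is not stated, so that table served for names and gene order only. Spots of a gene were averaged, then the arrays of a replicate, and a single array stood for its replicate where the swap had no value. The 5754 genes with a value in each replicate entered limma 3.58.1 (R 4.3.3, lmFit and eBayes, mean ratio against 0, two-sided, Benjamini-Hochberg). The procedure was also run on simulated data with the same SD for every gene and replicate. That run does not cover the unequal spreads of these data. Intervals are those of the moderated fit. Every gene of the naming rule is named, and in other lists mainly those that passed; further ones were named after their values were seen. Members and lists were chosen with earlier results of these data known. Alternatives covered the genes tested, spots, array weighting, dye, scaling, moderation and left-out arrays. Promoter and protein sequences were not analysed here.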

Additional observations from a re-analysis of the deposited data

Results flagged for a closer look

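Mal-A5 was the 1 gene, among the 21 of the naming rule with a value on all 4 arrays, in which a single array stood far from the others: its log2 ratio was 0.12 and 0.08 in replicate 1 and -0.13 and 0.11 in replicate 2, and the gap below the other arrays took up 0.832 of the whole range. For 4 independent values chance gives such a gap in about 1 of 20 genes, a rate that need not hold for swapped arrays of the same RNA. The gene did not pass the limma test with its mean of 0.04 ± 0.08.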

How the results depend on the processing

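Of the 26 enzyme genes, 14 passed negative as reported and none positive. Some alternatives could test fewer of them: 11 of 21 passed negative on arrays with the mutant in Cy5 (betaTry could not be tested there), 13 of 25 with the mutant in Cy3, 13 of 20 with values on all 4 arrays and 12 of 25 without the array labelled with a transgene on chromosome 2. Between 13 and 15 of all 26 passed negative in the other alternatives with moderation, and none passed positive in any alternative. Without variance moderation, 0 genes passed over all 5754 (459 had an unadjusted p under 0.05, against 2019 with moderation). Scaling the arrays to one spread gave 15 and centring gave 14. Over all genes, 673 negative and 648 positive calls became 1181 and 1269 with the 4 arrays as independent, 924 and 990 with a dye term, 935 and 1007 with arrays scaled to one spread, and 456 and 396 without the array labelled with a transgene on chromosome 2, an alternative chosen after seeing the data. The Jonah median was -0.70 when only arrays with Cy3 in the mutant channel were used, and the lysozyme median -0.44 on those with the mutant in Cy5. Leaving out a replicate leaves no test. The Jonah medians then ran from -0.66 to -0.55 and the lysozyme medians from -0.60 to -0.52, while the trypsin medians ran from -0.26 to 0.15 and the maltase and amylase medians from -0.10 to 0.10, both with a change of sign. Single calls changed for few genes outside the unmoderated fit. LysB missed the threshold with the replicate as a random block (limma adjusted p = 0.052) and, like LysE, on the arrays with the mutant in Cy5 (0.103 and 0.0788), and Jon65Aiii passed with a dye term (0.0305), with independent arrays (0.0178) and with scaled arrays (0.0238). The cause of these changes was not tested.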

Other observations

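Genes that lie among the enzyme clusters but outside the naming rule, named after their values were seen, did not all share the ratios of their neighbours. The rule goes by symbol alone, so genes with only a CG number were left out whatever enzyme they encode. CG30025, which lies between gammaTry and deltaTry, was positive on all 4 arrays, with log2 ratios of 0.35 and 0.36 in replicate 1 and 0.67 and 0.54 in replicate 2 (mean 0.48 ± 0.17, limma adjusted p = 0.0206). In the lysozyme cluster, between LysX and LysB, Aplip1, which encodes a kinesin adaptor of the JNK pathway, was at -0.83 ± 0.58 (limma adjusted p = 0.000116) and CG9119 at -0.52 ± 0.34 (limma adjusted p = 0.0121). Both had the more negative ratios in replicate 2 (-1.25 against -0.42 in replicate 1 for Aplip1, and -0.76 against -0.28 for CG9119). The measured lysozymes were divided. LysS (-0.78 against -0.49) and LysE (-0.50 against -0.40) also had the more negative ratio in replicate 2. LysB (-0.19 in replicate 2 against -0.76) and LysD (-0.55 against -0.71) had it in replicate 1.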
